A study of Oryctolagus cuniculus with 24 samples.

Results

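BCO2 (beta-carotene oxygenase 2) and RGCC (regulator of cell cycle) are 2 of the 28940 genes measured in rabbit peripheral blood mononuclear cells (PBMCs), the lymphocytes and monocytes of the blood. They were chosen by their measured differences between PMA-Ionomycin-stimulated and mock-stimulated cells. BCO2 was picked as a gene that was lower than mock at 4 hours (T4) and higher at 24 hours (T24), and RGCC as a gene that stood equally far above mock at both times. The differences between PMA-Ionomycin and mock, and the changes over time in those same arrays, are therefore given for these genes as a description without a test. The LPS arrays had no part in that choice, so the tests below concern LPS.

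The blood donors were 4 rabbits of the New Zealand White strain, all adult females, called rabbit 1, 2, 4 and 5. Cells of each rabbit received buffer alone (mock), 1 μg/mL of LPS, or 10 ng/mL of PMA together with 1 μg/mL of ionomycin, and were harvested after 4 or 24 hours, which gave 6 groups of 4 samples and 24 one-colour arrays. LPS is a bacterial cell wall component sensed by TLR4, PMA activates protein kinase C, and ionomycin carries calcium into the cell, so that PMA with ionomycin acts on lymphocytes without an antigen. PBMCs are a mixture, and in such bulk RNA fewer cells of a type and less RNA per cell cannot be told apart.

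BCO2 is a mitochondrial enzyme that cuts carotenoids away from their central double bond, while its relative BCO1 cuts beta-carotene in the middle to give retinal. Loss of BCO2 is known in rabbits and other livestock as a cause of yellow, carotenoid-laden fat. RGCC, first described as a gene that responds to complement, encodes a small protein that binds the kinase CDK1 and raises its activity, is a partner of PLK1, and is linked to TGF-beta and SMAD3 signalling.

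Each gene was read by a single 60-base probe printed on 1 spot per array, and both probes are shown because every value of these genes rests on them. The BCO2 probe lies on the minus strand of chr1:104154564-104154623 of the oryCun2 build, at base 1514 of the transcript for which it was designed. It is set here against the most similar probe of BCO1 (chr5:35698376-35698435), with the 35 of 60 bases that are identical in both written in capitals.
BCO2: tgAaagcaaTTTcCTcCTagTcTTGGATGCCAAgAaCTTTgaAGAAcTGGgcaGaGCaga
BCO1: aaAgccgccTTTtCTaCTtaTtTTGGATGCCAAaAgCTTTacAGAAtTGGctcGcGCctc
The longest run that the BCO2 probe shared with any other probe of the array was 13 bases. BCO1, read by 5 overlapping probes, was not well above background on any of the 24 arrays.

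The RGCC probe lies on the minus strand of chr8:53601854-53601910, an interval of 57 bases in the files for a probe of 60 bases, at base 347 of its transcript. The array carries 4 more probes over the same target, each moved by 1 base, which no gene name was attached to and which therefore stand outside the selected genes. The named probe and the farthest of the 4 are printed here because these spots give a second reading of RGCC, and the capitals mark the 56 bases common to all 5 probes.
RGCC: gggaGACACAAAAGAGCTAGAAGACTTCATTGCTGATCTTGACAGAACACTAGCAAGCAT
A_04_P098692: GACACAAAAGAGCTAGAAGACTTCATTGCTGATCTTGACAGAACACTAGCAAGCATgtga

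Levels are given as the log2 of the spot's median signal minus the median of its array, so that 0 is the level of the middle spot and 1 unit is a doubling. A spot is called well above background by the scanner software when its signal exceeds the local background by a set margin. Levels of the 2 probes are not set against each other, since probes differ in brightness.

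In mock cells at T4, the BCO2 levels of rabbits 1, 2, 4 and 5 were 1.86, 1.05, 0.41 and 0.88. With LPS at T4 it was 1.69, 2.31, 1.91 and 0.95 in the same order of rabbits. With PMA-Ionomycin at T4 it was -0.68, -0.51, -0.83 and -0.80. All 8 mock and LPS spots were thus above all 4 PMA-Ionomycin spots at T4, and the mock and LPS groups overlapped. None of the PMA-Ionomycin spots was well above background, with median signals of 46 to 46.5 over a local background of 28 to 35, whereas the mock spots read 101 to 298.5.

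At T24, the BCO2 level in mock cells was -0.72, -0.86, -0.58 and -1.09 in rabbits 1, 2, 4 and 5. With LPS it was -0.90, -1.02, -0.79 and -0.94. With PMA-Ionomycin it was 5.09, 4.74, 4.86 and 5.43. The 8 mock and LPS spots were not well above background, and the 4 PMA-Ionomycin spots, with signals of 2212 to 3652, lay far above all others.

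**Figure D1:**
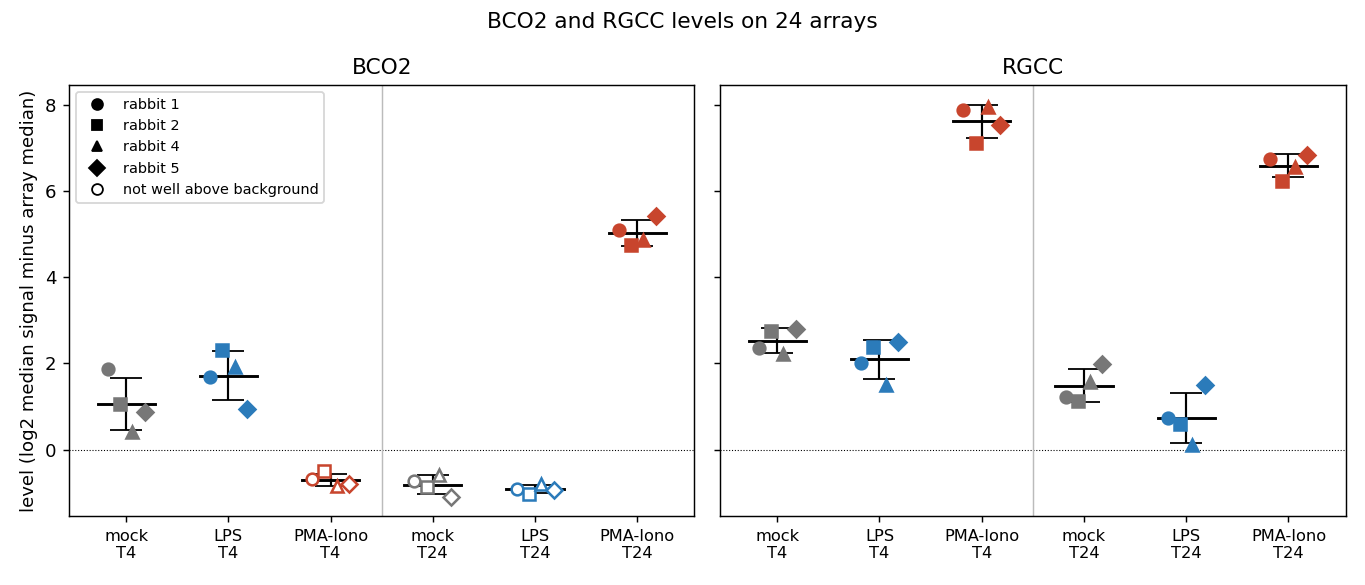
Levels of BCO2 (left) and RGCC (right) on the 24 arrays, as log2 median signal minus the array median, in mock, LPS and PMA-Ionomycin groups at T4 and T24. Each symbol is a rabbit, open symbols are spots not well above background, and the bars give the mean and the SD of 4 rabbits. BCO2 was above background in mock and LPS cells at T4 and, at T24, in PMA-Ionomycin cells alone, while RGCC was above background everywhere and highest with PMA-Ionomycin at both times.

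The order of the BCO2 group means was PMA-Ionomycin T24 (5.03 ± 0.30, SD, n = 4), LPS T4 (1.72 ± 0.57), mock T4 (1.05 ± 0.61), PMA-Ionomycin T4 (-0.70 ± 0.15), mock T24 (-0.82 ± 0.22) and LPS T24 (-0.91 ± 0.09). LPS T4 and mock T4 did not differ beyond their spread, and the 3 groups at the bottom, all not well above background, have no order among themselves. At T4, mock cells thus gave a BCO2 signal that was not seen in PMA-Ionomycin cells at T4, nor in mock cells at T24.

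Within rabbits, BCO2 after PMA-Ionomycin differed from mock at T4 by -1.76 ± 0.55 (SD, n = 4) on the log2 scale, with single values from -2.54 to -1.24. At T24 the difference was 5.85 ± 0.47, from 5.45 to 6.52. Since the dimmer group was not well above background in either comparison, these are bounds on the median-centred scale: BCO2 was at least 3.38-fold lower at T4 and at least 57.5-fold higher at T24. The bounds depend on the scale. At T24 the log2 difference was 5.28 with quantile normalization, 4.78 with normexp and quantile normalization, and 7.76 with the scanner's background-subtracted signal. At T4 it was -1.47 with normexp and quantile normalization and -4.43 with the background-subtracted signal. Some of these values are smaller than the bounds, which therefore hold on the median-centred scale alone. From T4 to T24, the BCO2 difference was -1.87 ± 0.66 on the log2 scale in mock cells, negative in 4 of 4 rabbits, and 5.73 ± 0.40 in PMA-Ionomycin cells, positive in 4 of 4. These too are bounds, at least 3.65-fold lower and at least 53.2-fold higher, as the dimmer group was not well above background.

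Among all 28940 genes, 13.4% were called higher and 9.34% lower after PMA-Ionomycin at T4, and 22.1% higher and 11.5% lower at T24 (limma, Benjamini-Hochberg adjusted p below 0.05). BCO2 was 1 of 705 genes called lower at T4 and higher at T24, of which 211 carried a symbol, and among those 211 it had the highest difference at T24. That rank uses the values by which it was chosen, rests on a mock group not well above background, and describes its place in the table only.

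For RGCC, the levels of rabbits 1, 2, 4 and 5 in mock cells at T4 were 2.35, 2.75, 2.22 and 2.80. With LPS at T4 it was 2.02, 2.38, 1.49 and 2.50. With PMA-Ionomycin at T4 it was 7.89, 7.11, 7.95 and 7.52. The PMA-Ionomycin spots, with signals of 9088.5 to 20241, stood clear of the mock spots at 355 to 597 and of the LPS spots at 166 to 437, and the mock and LPS groups overlapped.

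At T24, RGCC in mock cells was 1.23, 1.13, 1.58 and 1.98 in rabbits 1, 2, 4 and 5. With LPS it was 0.74, 0.59, 0.12 and 1.50. With PMA-Ionomycin it was 6.74, 6.23, 6.56 and 6.83. Again the PMA-Ionomycin group did not overlap any other, and all 24 RGCC spots were well above background without a saturated spot.

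The order of the RGCC group means was PMA-Ionomycin T4 (7.62 ± 0.39, SD, n = 4), PMA-Ionomycin T24 (6.59 ± 0.27), mock T4 (2.53 ± 0.29), LPS T4 (2.10 ± 0.45), mock T24 (1.48 ± 0.38) and LPS T24 (0.74 ± 0.58). The top 2 groups did not overlap, mock T4 did not overlap mock T24, and each other pair of neighbours among the lower 4 groups overlapped.

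RGCC after PMA-Ionomycin differed from mock within rabbits by 5.09 ± 0.65 (SD, n = 4) at T4 and by 5.11 ± 0.29 at T24 on the log2 scale, or 34.0-fold and 34.5-fold. Its level nevertheless differed between T24 and T4 by -1.03 ± 0.30 in PMA-Ionomycin cells and by -1.05 ± 0.43 in mock cells, lower at T24 in 4 of 4 rabbits in both, so that both levels were lower at T24 at nearly the same distance from each other. With quantile normalization the differences from mock were 4.90 at T4 and 4.60 at T24, and with normexp and quantile normalization 4.86 and 4.45, so they were less alike on those scales. RGCC was 1 of 2315 genes called higher at both times, 733 of them with a symbol. Ranked by the smaller of its differences at T4 and T24, RGCC stood at place 2 of these 733. As for BCO2, this call and rank rest on the values by which the gene was chosen.

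The 4 unnamed probes over the RGCC target gave PMA-Ionomycin minus mock differences of 5.14 to 5.20 at T4 and 5.10 to 5.19 at T24, and their levels followed those of the named probe over the 24 arrays with Pearson's r of 0.995 to 0.9995. They overlap the named probe in nearly all of their bases and were hybridised with the same RNA, so they repeat the reading of the spot and add no sample. BCO2 had no such second probe.

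**Figure D2:**
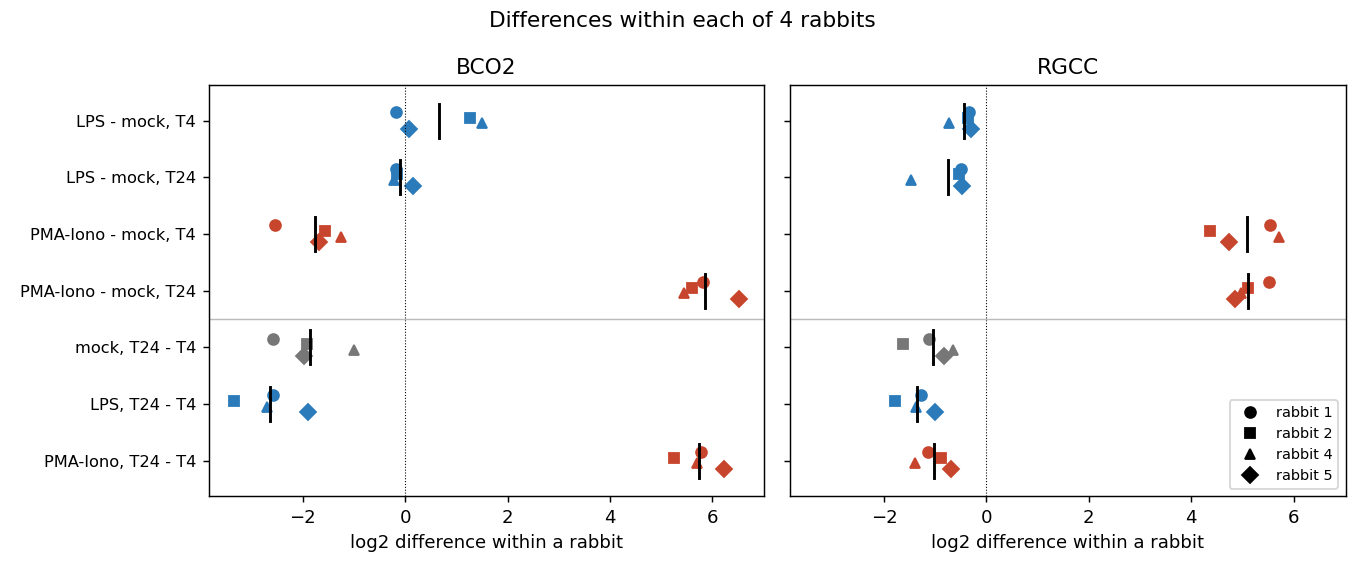
Log2 differences of BCO2 (left) and RGCC (right) within each rabbit, for LPS and PMA-Ionomycin against mock at each time (upper rows) and for T24 against T4 within a condition (lower rows). Symbols are rabbits and black bars are means of 4. For BCO2 the PMA-Ionomycin differences lie between -2.54 and -1.24 at T4 and between 5.45 and 6.52 at T24, and for RGCC all 8 lie above 4.

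After LPS, neither gene passed the test against mock. BCO2 at T4 was higher with LPS by 0.66 ± 0.25 (SE) on the log2 scale, with a 95% interval of 0.15 to 1.18 before adjustment, and was higher in 3 of 4 rabbits (limma adjusted p = 0.204). It was 0.39 without rabbit 4 and 1.05 with the background-subtracted signal, not called in either. At T24 the difference was -0.10, with an interval of -0.62 to 0.42 (limma adjusted p = 0.983), between groups that were both not well above background. The LPS comparisons use the mock arrays that also entered the choice of the genes, and the share of all genes that was called was 1.02% at T4 and 1.22% at T24. When the rabbit entered as a block, these counts went from 296 to 1233 and from 354 to 752 of 28940 genes, and without rabbit 1, 2, 4 or 5 limma called 120, 0, 0 or 102 at T4 (with 3187 and 2105 genes at an unadjusted p below 0.05 where it called 0). At T24 it called 110, 86 or 614 without rabbit 2, 4 or 5. BCO2 was still not called with the block (limma adjusted p = 0.146 and 0.956).

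RGCC was lower with LPS in 4 of 4 rabbits at both times, though not beyond the adjusted threshold. The difference was -0.43 at T4 (95% interval -0.98 to 0.12, limma adjusted p = 0.506) and -0.74 at T24 (-1.29 to -0.19, limma adjusted p = 0.240). The mock and LPS groups overlapped at both times, and the 4 unnamed probes gave -0.44 to -0.40 at T4 and -0.89 to -0.46 at T24. The change of the LPS effect between the times was not called for BCO2 (-0.76, interval -1.50 to -0.03, limma adjusted p = 0.284) or for RGCC (-0.31, interval -1.09 to 0.47, limma adjusted p = 0.705), in a comparison that called 1.95% of genes. With the rabbit as a block that comparison called 1666 genes in place of 564, and without rabbit 2, 4 or 5 it called 7, 31 or 184. With the block, RGCC stayed uncalled against mock (limma adjusted p = 0.365 and 0.099) and in the change between times (0.621), as did BCO2 (0.224). Without rabbit 4 that change was -0.45 for BCO2 and -0.17 for RGCC, and with the background-subtracted signal -1.90 and -0.74, none of them called.

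Between T4 and T24 both genes fell in LPS-stimulated cells, in arrays that the choice of the genes had not used. Both also fell in mock cells, which that choice had used, with differences of -1.87 for BCO2 and -1.05 for RGCC, in 4 of 4 rabbits each. The choice of BCO2 favoured a high mock level at T4 and a low one at T24, and LPS was not called different from mock. The test of BCO2 in LPS cells is therefore not independent of the choice. BCO2 fell by 2.63 ± 0.25 (SE) on the log2 scale (95% interval -3.15 to -2.11, limma adjusted p = 6.38e-08), in 4 of 4 rabbits, and as the T24 spots were not well above background it was at least 6.05-fold lower. RGCC fell by 1.36 ± 0.27 (95% interval -1.91 to -0.81, limma adjusted p = 0.000442), or to 0.389 of its T4 level, in 4 of 4 rabbits, with an overlap between the highest T24 and the lowest T4 spot. This comparison called 20.9% of all genes lower, so being called lower was frequent among them, and the median over all genes was -0.19. With the background-subtracted signal the differences were -5.68 for BCO2 and -2.06 for RGCC, both called. With normexp and quantile normalization they were -2.30 and -1.54, both called, so the bound for BCO2 holds on the median-centred scale alone. The unnamed RGCC probes gave differences of -1.53 to -1.07, with limma adjusted p from 0.00029 to 0.015.

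The arrays lay on 3 slides of 8. Within the slides, BCO2 differed between LPS T24 and LPS T4 by -3.22, -2.89 and -2.11, and RGCC by -1.65, -0.44 and -2.14, from 1 or 2 arrays per group and slide. The PMA-Ionomycin minus mock differences within slides were -1.94 to -1.55 (T4) and 5.46 to 6.0 (T24) for BCO2, and 4.73 to 5.24 (T4) and 4.97 to 5.57 (T24) for RGCC. No slide turned a direction of these differences, and between LPS and mock only BCO2 at T24, at background level, had slides on both sides of 0 (-0.26 to 0.06).

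The pathways around each gene are described next from lists of related genes, with PMA-Ionomycin against mock tested by limma over all genes. Of 40 carotenoid and retinoid genes, 24 had a named probe, and 12 of these exceeded background on every array of some group. At T4, 4 of the 24 rose and 4 fell, and at T24, 3 rose and 6 fell, with medians of 0.06 and 0.01 against 0.05 and 0.03 over all genes. Over all genes, 13.4% rose and 9.34% fell at T4 and 22.1% rose and 11.5% fell at T24, so the number that rose was near the share over all genes at T4 and below it at T24, and the number that fell was above the share at both times. Leaving out rabbit 4 took the number called at T4 from 8 to 5.

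BCO1 and RPE65, the enzymes of the BCO2 family that make retinal and the visual retinoid, were not well above background on any array. RBP4, which carries retinol in the blood, fell by 4.31 ± 0.46 (SE) on the log2 scale at T4 (limma adjusted p = 1.75e-07), and at T24 it was no longer well above background and was at least 39.3-fold lower (limma adjusted p = 1.92e-09). DHRS3, which reduces retinal to retinol, fell by 1.85 at T4 and by 3.24 at T24 (limma adjusted p = 1.38e-05 and 1.29e-09), and ALDH1A1, which oxidises retinal to retinoic acid, fell by 1.82 and by 1.54 (limma adjusted p = 8.14e-06 and 3.35e-05).

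Other members of the list moved the opposite way. ALDH1A2, which catalyses the same reaction as ALDH1A1 and is named here after its values were seen, was at least 2.08-fold higher at T24 (limma adjusted p = 4.86e-06), and was at 0.34 at T4 (limma adjusted p = 0.206). DHRS9, a retinol dehydrogenase, rose by 3.62 at T4 and by 1.64 at T24 (limma adjusted p = 2.04e-06 and 0.00641), and FABP5, a fatty acid binding protein that also carries retinoic acid, rose by 1.93 and by 1.45 (limma adjusted p = 3.21e-08 and 7.67e-07). RBP4, DHRS3, ALDH1A1, DHRS9 and FABP5 each kept their direction at both times, unlike BCO2. DGAT1, an enzyme of triglyceride synthesis that also esterifies retinol, was the member called in opposite directions, higher by 0.66 at T4 and lower at T24 with a difference of -0.63 (limma adjusted p = 0.042 and 0.0361), the reverse order of BCO2, and is named here after its values were seen. STRA6, the retinol uptake receptor, and RARA, a retinoic acid receptor, had no probe with their symbol and were not analysed here.

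Of 15 genes around CDK1, PLK1 and entry into mitosis, 9 had a named probe. At T4, 4 fell and 1 rose, and at T24, 7 rose and none fell, with a median of 1.17 at T24 against 0.03 over all genes. The shares over all genes were 9.34% lower and 13.4% higher at T4, and 22.1% higher and 11.5% lower at T24. The 5 calls at T4 became 3 without rabbit 1 and 3 without rabbit 4.

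CDK1, the kinase that RGCC binds, fell by 1.03 ± 0.28 (SE) at T4 (limma adjusted p = 0.0084) and rose by 4.71 ± 0.28 at T24 (limma adjusted p = 7.37e-12). Its cyclins followed the same course: CCNB1 fell by 0.95 and then rose by 4.29 (limma adjusted p = 0.037 and 3.09e-10), and CCNB2 fell by 1.14 and then rose by 1.69 (limma adjusted p = 0.00955 and 0.000143). PLK1, a mitotic kinase, fell by 0.76 and rose by 1.17 (limma adjusted p = 0.00523 and 3.68e-05). All 4 were lower than mock in 4 of 4 rabbits at T4 and higher in 4 of 4 at T24, a course shared with BCO2 and not with RGCC.

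PKMYT1, a kinase that holds CDK1 back, was at 0.37 at T4 (limma adjusted p = 0.151) and rose by 3.1 at T24 (limma adjusted p = 2.91e-12). CDKN1A, the inhibitor p21, rose by 2.16 at T4 (limma adjusted p = 0.000151) and stood at 0.59 at T24 (limma adjusted p = 0.294). It was the only gene of this list that was called higher at T4, when RGCC stood at its highest level.

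**Figure D3:**
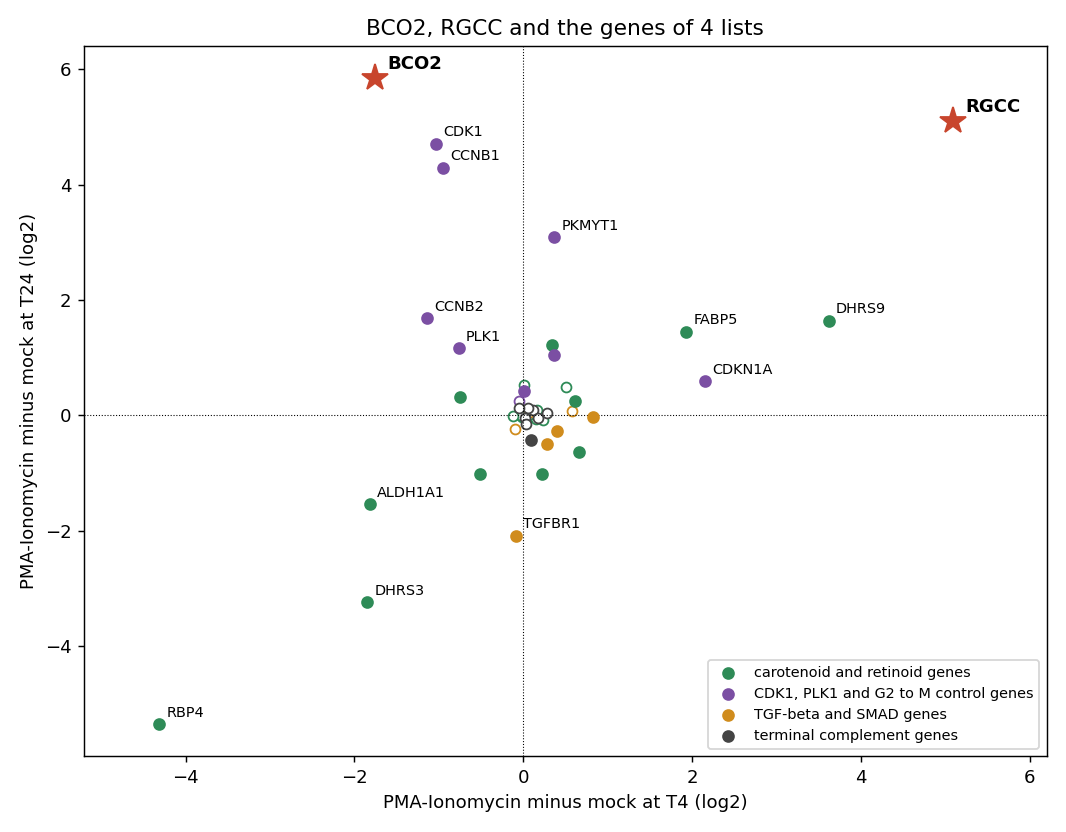
PMA-Ionomycin minus mock at T4 (horizontal) and at T24 (vertical), in log2 units, for the genes of the 4 lists and for BCO2 and RGCC (stars). Filled circles passed the limma threshold at 1 or both times and open circles at neither. BCO2 lies at the upper left with CDK1, CCNB1, CCNB2 and PLK1, and RGCC lies at the far upper right.

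Of 11 TGF-beta and SMAD genes, 8 had a named probe, and 4 of these exceeded background on every array of some group. At T4, 2 rose, and at T24, 2 others fell, which is 25.0% of the 8 at each time beside 13.4% and 11.5% of all genes. TGFB2, a TGF-beta ligand, was at least 1.78-fold higher at T4 (limma adjusted p = 9.76e-05), and SMAD4, the common SMAD, rose by 0.41 (limma adjusted p = 0.0203). Of the receptors, TGFBR1 fell by 2.08 at T24 (limma adjusted p = 1.5e-11) and TGFBR2 by at least 1.41-fold (limma adjusted p = 0.0186). TGFBR3 was not well above background on any array and was not called (0.05 at T24, limma adjusted p = 0.89). SMAD3 was at -0.09 and -0.23 (limma adjusted p = 0.828 and 0.325), and was well above background on 7 of the 24 arrays. At T24 no mock or PMA-Ionomycin array was among these, so that value sets background against background. TGFB1, and AKT1 outside this list, had no probe with their symbol and were not analysed here. The 2 calls became 1 at T4 without rabbit 1 or 4, and 1 at T24 without rabbit 1, 4 or 5.

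Of 11 terminal complement genes, 8 had a named probe, and no group had all its arrays well above background for any of them. None was called at T4, and at T24 CD59, which protects cells from the complement pore, was at least 1.35-fold lower (limma adjusted p = 0.016), a call lost without rabbit 1, 4 or 5. That 1 call of 8 genes is near the share of all genes called lower at T24, 11.5%.

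The genes whose levels were most like those of BCO2 over the 24 arrays, among 6397 named genes well above background on all arrays of at least 1 group, were KIF20B (Pearson's r = 0.975), CPAP (0.975), NME7 (0.966), ARHGAP11A (0.960) and SMC4 (0.958). KIF20B is a mitotic kinesin, CPAP a centriole protein, NME7 a member of the nucleoside diphosphate kinase family, ARHGAP11A a GTPase activating protein and SMC4 a condensin subunit. All 5 were lower at T4, by 0.51 to 0.98, and higher at T24, by 1.96 to 2.77, which is a smaller span than that of BCO2. BCO2 itself was well above background on 12 of the 24 arrays, so its r values rest in part on spots at background level.

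Those most like RGCC were STAMBPL1 (0.981), EEF1E1 (0.979), METTL13 (0.974), ACSL4 (0.973) and HEATR1 (0.973). STAMBPL1 is a deubiquitinase, EEF1E1 a subunit of the multi-tRNA synthetase complex, METTL13 a methyltransferase of an elongation factor, ACSL4 a fatty acid CoA ligase and HEATR1 a ribosome biogenesis factor. Their differences from mock were 2.02 to 2.60 at T4 and 1.63 to 2.60 at T24. The r values describe 24 arrays that share 4 rabbits and fall into few levels, and BCO2 with RGCC gave r = 0.393.

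**Figure D4:**
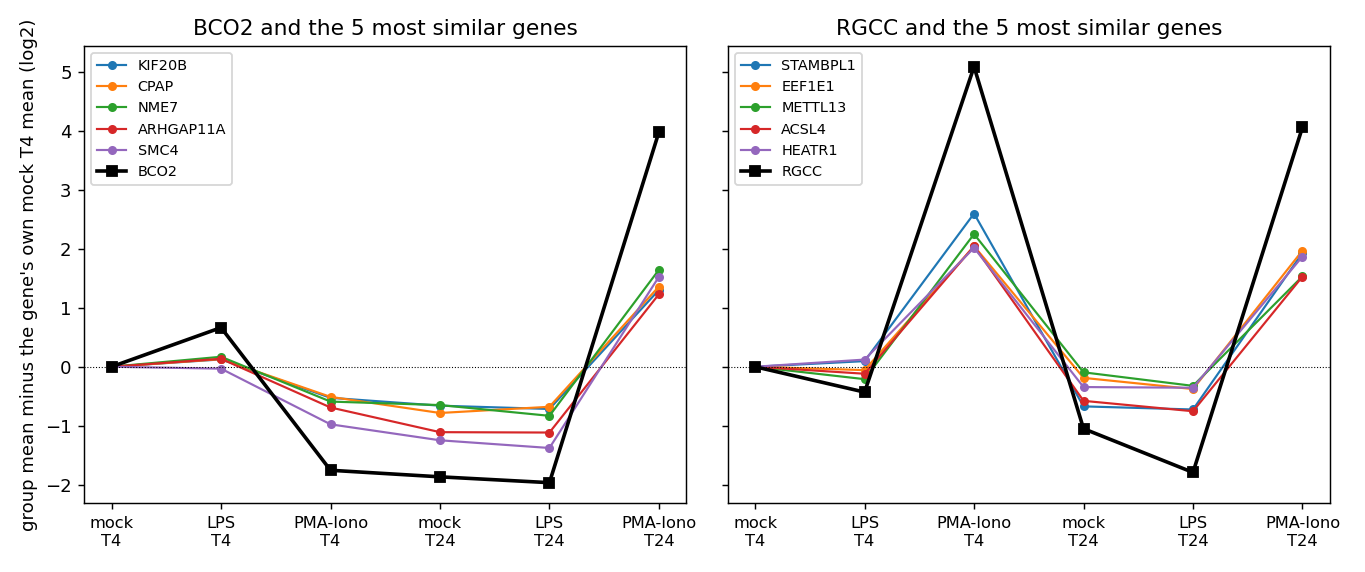
Group means of BCO2 (left) and RGCC (right), in black, and of the 5 named genes most like each over 24 arrays, each drawn as the log2 difference from its own mean in mock cells at T4. The 5 genes were picked for a like course on these same arrays, and the span of BCO2 and RGCC is larger than that of the other genes.

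The nearest genes with a named probe in the RefSeq order of the mOryCun1.1 assembly, 3 on either side of BCO2 and of RGCC, had the following values. They stood 1 to 10 protein-coding genes away, since genes between them had no named probe. Around BCO2, TEX12 and HTR3B were not well above background on any array, and IL18, an inflammatory cytokine, fell by 0.85 at T4 (limma adjusted p = 0.0456) and was at 0.73 at T24 (limma adjusted p = 0.0693). TIMM8B, a mitochondrial import factor, was at 0.38 at T4 and rose by 1.99 at T24 (limma adjusted p = 7.0e-08), and TTC12 and USP28 were called at neither time. Around RGCC, NAA16, ELF1, VWA8 and DGKH were called at neither time, WBP4 rose by 0.85 at T24 (limma adjusted p = 0.000281), and TNFSF11, the cytokine RANKL, not well above background in mock cells, was at least 1.49-fold higher at T4 and at least 2.31-fold higher at T24 (limma adjusted p = 0.0058 and 1.4e-06). Thus 1 of these 12 genes was called higher at both times and 0 lower at T4 and higher at T24, beside 8.0% and 2.44% of all genes, so the counts are near the background.

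Over the 24 arrays, 51.4% to 62.3% of spots were well above background. Markers of PBMCs were present in mock cells at T4, where 7 of 8 T cell, 4 of 5 B cell and 6 of 7 monocyte markers with a probe were bright enough to pass that call on all 4 arrays, as was PRF1, the NK cell marker measured. Both platelet, 3 of 4 neutrophil and 1 of 2 erythrocyte markers were so too, and MMP8, a neutrophil granule gene, was on no array. The mixture of RNAs moved with the stimulation. With PMA-Ionomycin at T24, 6 of 7 monocyte markers fell and none rose (all genes: 11.5% lower, 22.1% higher), and their summed level was 5.89 to 6.85 against 8.44 to 9.76 in mock cells. At T4, 3 of 7 fell (5.20 to 5.75 against 7.09 to 8.24), beside 9.34% of all genes. The T cell markers had summed levels of 3.86 to 4.13 with PMA-Ionomycin and 3.53 to 4.17 in mock cells at T24, with 1 higher and 2 lower of 8. Both platelet markers fell at T4, to 2.74 to 3.94 against 5.31 to 6.57, and at T24 TUBB1, one of them, rose by 1.21 (limma adjusted p = 0.016). Between T4 and T24 in LPS cells, both platelet markers and 3 of 8 T cell markers fell, and 5 of 7 monocyte markers rose, where 20.9% of all genes fell and 16.6% rose. Of 5 B cell markers, 1 rose and 2 fell at T4, and 1 rose and 3 fell at T24. PRF1 fell by 0.76 at T4 and rose by 0.96 at T24 (limma adjusted p = 0.0328 and 0.00442), 1 of 4 neutrophil markers fell at T4 and 2 at T24, and 1 of 2 erythrocyte markers fell at T24. In LPS against mock, 2 of 7 monocyte markers were called at T4, where their summed level was 5.83 to 6.67 with LPS and 7.09 to 8.24 in mock cells, and 1 of 7 monocyte and 2 of 4 neutrophil markers were called at T24 (neutrophil sums of 2.48 to 2.94 against 3.27 to 4.57), beside 1.02% and 1.22% of all genes. The part of these changes in the values of BCO2 and RGCC was not tested.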

How the data were processed

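The 24 total RNA samples had been Cy3-labelled and put on a custom rabbit array, 1 sample per array. Per the file headers and the labels, the deposited scanner files hold spot intensity values, the median signal, local background and background-subtracted processed signal, from Agilent Feature Extraction 10.7.3.1 on probes of the oryCun2 build. The deposited value table holds log2 values, which the authors made from the median signals with a constant taken off each array (column medians -1.11 to -0.81).

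The log2 of each median signal was centred on its array's median over non-control spots, spots marked as outliers (280 to 370 per array) were left out, and spots were averaged per probe and probes per gene. The authors' methods likewise name a log2 transform, median normalization, averaging and limma. Of 42089 probes, 11029 were named through a RefSeq accession, 8437 through a gene number and 913 by the file's own gene name, and 21710 were left unnamed. Unnamed probes were kept under their systematic name in the files. The 28940 genes, 9572 of them with a symbol, therefore include unnamed transcripts and single probes, among them the 4 unnamed probes over RGCC. BCO2 and RGCC were named by gene number. Group means were fitted on all 24 arrays with limma 3.58.1 in R 4.3.3, with empirical Bayes moderation and Benjamini-Hochberg adjustment over all genes at 0.05. The fit was tested on simulated data. A bound ("at least") sets the brighter group's mean against the mean, per array, of the higher of the dim probe's own level and the lowest level of any probe called above background there. Precision is set by the 4 arrays in each group.

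BCO2 and RGCC, the gene lists and the markers were chosen with earlier results of these data known. Genes named were BCO2 and RGCC, a set of genes tied to them by their known biology (BCO1, RPE65, RBP4, STRA6, RARA, CDK1, CCNB1, PLK1, AKT1, SMAD3, TGFB1), from each list up to 4 called genes with the largest difference at each time, the 5 named genes with the highest Pearson's r with each, and up to 3 RefSeq neighbours with a probe on either side. The rabbit numbers pair the samples, since same-numbered samples come from 1 animal. Deviations from group means correlated with a median r of 0.228 over 60 pairs of arrays from the same rabbit and of -0.07 over 180 pairs from different rabbits. Alternatives tried were the deposited table, quantile normalization, normexp background correction (offset 50) followed by quantile normalization, processed signals divided by their 75th percentile, outlier spots kept, dim probes left out, single probes, a fit on the compared groups alone, a block for the rabbit or for the slide, and each rabbit left out.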

Additional observations from a re-analysis of the deposited data

How the results depend on the processing

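All 112 values of the LPS tests of BCO2 and RGCC under the alternatives kept their direction and their side of the threshold, with adjusted p from 1.25e-08 to 4.36e-05 for the fall of BCO2 between LPS T4 and LPS T24 and from 2.19e-05 to 0.0102 for that of RGCC. Each gene is 1 spot per array, never marked as an outlier. The differences are thus the same by construction with dim probes left out, outlier spots kept, single probes, the compared groups alone or the rabbit block. In these settings the direction could not turn, and only the adjusted p could move. The PMA-Ionomycin minus mock values were likewise fixed there. With the rabbit as a block (the paired fit), BCO2 fell by 2.63 (adjusted p = 7.6e-08) and RGCC fell by 1.36 (adjusted p = 9.1e-05), and the block changed no call of these genes and no list count. The PMA-Ionomycin minus mock values moved by more than the spread between rabbits in 6 of 56 cases, none with a turned sign. For BCO2 the processed signal gave -4.43 at T4 and 7.76 at T24, against 5.28 at T24 with quantile normalization and 4.78 with normexp and quantile normalization. For RGCC at T24 they were 4.60 and 4.45 with the latter 2 settings. The cause was not tested. Of the list counts, 89 stayed within 1.5 times and 15 fell below. The TGF-beta and SMAD list had 1 call at T4 with the processed signal, the deposited table or only the arrays of the comparison, and the terminal complement list had 0 at T24 with normexp and quantile normalization. Leaving out 1 rabbit gave 5 to 7 calls for the carotenoid and retinoid list at T4, 3 to 5 for the CDK1 and PLK1 list at T4, 1 to 3 and 1 to 2 for the TGF-beta and SMAD list at T4 and T24, and 0 to 1 for terminal complement at T24. Over all genes, LPS against mock at T4 called 296 genes, 423 with dim probes left out, 111 with quantile normalization, 105 with normexp, 71 with the deposited table, 12 with the processed signal and 0 with only its own arrays (limma, 3529 at an unadjusted p below 0.05). It called 0 without rabbit 2 (3187 unadjusted) or 4 (2105 unadjusted), 120 without rabbit 1 and 102 without rabbit 5, and LPS against mock at T24 called 354 genes, 47 with only its own arrays, and 86 to 614 without 1 rabbit. The median over all genes of LPS T24 minus LPS T4 was -0.19, and became -0.03 after quantile normalization and -0.46 on the processed signal. With 1 spot per array, and BCO2 not well above background in 3 of 6 groups, its differences from those groups are bounds, and these hold on the median-centred scale alone.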

Other observations

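An unnamed transcript, ENSOCUT00000009672, read by 5 probes that start 32.8 kb from the BCO2 probe on oryCun2, was noticed after its values were seen. Its mean level was 1.56 in mock, 1.49 in LPS and -0.55 in PMA-Ionomycin cells at T4, and 1.59, 2.78 and -0.46 at T24. PMA-Ionomycin minus mock was -2.10 at T4 (limma adjusted p = 0.00376) and -2.05 at T24 (limma adjusted p = 0.00296), with the PMA-Ionomycin signal well above background on 1 of 4 arrays at each time, so that the size of these differences is uncertain. The SD in mock cells at T24 was 1.76, with 3 of 4 arrays well above background. A nearer unnamed transcript, ENSOCUT00000007359, at 9.85 kb, was at -0.72 at T4 (limma adjusted p = 0.0133) and at 0.33 at T24 (limma adjusted p = 0.284).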
